A study of Mus musculus with 96 samples.

Results

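Solute carriers are membrane proteins that move nutrients, metabolites and drugs across cell membranes. The genes described here were all those on the array whose symbol begins with Slc1a, Slc3a, Slc6a, Slc7a, Slc16a, Slc22a, Slc27a, Slc38a, Slc43a or Slco. They numbered 106 of 17658 named genes, and each was represented by its brightest probe. A pair of further genes with these prefixes was not analysed here. The rule also took in Slc7a6os, which by its name is the opposite-strand neighbour of Slc7a6 and no transporter.

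The samples were gonadal fat and liver of 48 mice from an F2 intercross of the lines M16i and MB2, all 15 weeks old, profiled for the genetics of obesity on chromosome 2. Both tissues of every mouse were hybridised, which made 96 arrays. In each tissue 24 arrays came from females and 24 from males, and haplotype classes 1, 2, 3 and 4 had 12 arrays each, 6 of each sex. Arrays were scanned on 4 days per tissue, and on a given day the mice of a class were of 1 sex. No day held arrays of both tissues. In fat minus liver, tissue and scanning day therefore cannot be told apart, which matters most for small differences. The labels give the classes by number only, so the parental segments of a class are not named here. Probes detected above background numbered 6582 to 10002 per fat array and 5519 to 9060 per liver array. The tissue labels matched their markers: 9 of 9 tested adipocyte genes were higher in fat, and 8 of 8 tested hepatocyte genes were higher in liver.

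The families divide by cargo. Members of Slc1, Slc38, Slc43 and the light chains of Slc7, which pair with the heavy chains Slc3a1 and Slc3a2, mostly carry amino acids, and Slc6 carries taurine, betaine, creatine, glycine and neurotransmitters. Slc27 proteins take up fatty acids and activate them to acyl-CoA, Slc16 proteins carry monocarboxylates such as lactate, and Slc22 and Slco proteins carry organic ions, carnitine, bile acids, steroid conjugates and drugs. In liver the Slco and Slc22 proteins of the sinusoidal membrane are known for clearing bile acids and drugs from blood. Fat is known for exchanging glutamine, serine and fatty acids with the circulation.

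Of the 106 genes, 50 were not detected on any array, and 8 were detected on all 96. A gene was tested across the tissues if its probe was detected on at least 12 of the 96 arrays, which 40 met. Within a tissue the same minimum left 28 genes in fat and 31 in liver, 19 of them in both. Levels are log2 normalized signals (over all arrays for tissue comparisons and interactions, within a tissue for sex and class), on which an undetected probe lies near 6, and levels of different probes are not comparable. Because signals near background are compressed, a difference against an undetected group understates the change. For such a group the fold is given as a lower bound.

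Gonadal fat and liver differed in which of these genes were detected, but the sets overlapped, with 19 genes tested in both and 8 detected on all 96 arrays. In fat the glutamine carrier Slc1a5, the glutamate carrier Slc1a3, the small neutral amino acid exchanger Slc7a10 and the fatty acid carrier Slc27a1 were detected on 48 of 48 arrays, and none of these was detected on any liver array. In liver the fatty acid and bile acid activating carriers Slc27a2 and Slc27a5, the amino acid carriers Slc38a3 and Slc38a4, the betaine carrier Slc6a12 and the organic anion carrier Slco1a1 were on 48 of 48 arrays. Of the 40 genes, 34 differed (85.0%, where 86.7% of all 11718 tested probes did), 13 higher in fat (47.9% of all probes) and 21 higher in liver (38.8%). Before adjustment the count was also 34, against 87.2% of all probes. The share that differed was thus that of the array as a whole. What stood out was size: 21 genes, 52.5%, were past the threshold and over 2-fold, against 19.6% of all probes, and the median absolute difference was 1.16 on the log2 scale against 0.30. For 18 genes the 48 fat arrays did not overlap the 48 liver arrays, against 17.6% of all probes. The detection minimum was counted over both tissues, so a gene detected in a single tissue was tested through the tissue where it was high. Such genes among the 21 include Slc1a5, Slc1a3, Slc7a10 and Slc27a1 in fat and Slc27a5, Slc38a3, Slc6a12 and Slco1a1 in liver. All probes passed the same minimum, but those detected in a single tissue were not counted. The part of this selection in the sizes was not tested. The shares of all probes, here and below, count every tested probe, dimmer second probes of a gene included. A member is its brightest probe, so the sets are unlike, and dim probes give smaller differences. In bulk tissue, fewer cells of a type and less RNA per cell cannot be told apart.

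**Figure D1:**
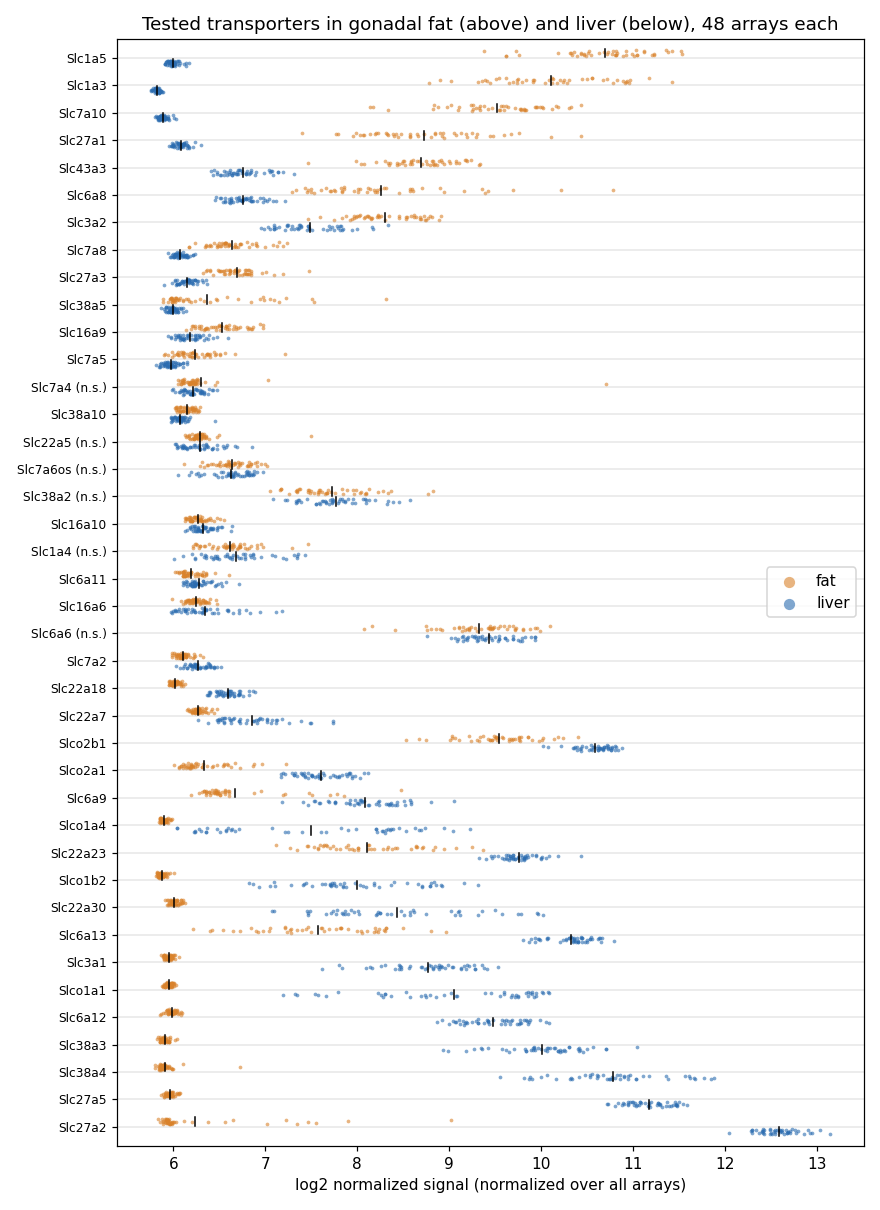
The 40 tested genes, ordered by difference, with each array as a point on the log2 normalized signal axis, fat above liver, a black bar at the mean of 48 arrays, and n.s. marking the genes whose difference did not pass. The 18 genes without overlap lie toward the top and the bottom, and the fitted differences run between 4.70 for Slc1a5 and -6.35 for Slc27a2.

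Among the fatty acid carriers, 4 of 6 genes were tested and all 4 differed, 2 in each direction. Slc27a1 (FATP1), the insulin-responsive fatty acid carrier of fat and muscle, ranged over 7.40, 8.66 and 10.43 (lowest, median, highest) in fat, against 5.95, 6.07 and 6.30 in liver. The tissues did not overlap, and fat was at least 5.32-fold higher (adjusted p = 6.25e-48). Slc27a2 (FATP2), which also activates very-long-chain fatty acids, ran the other way. Its values were 5.83, 5.95 and 9.02 in fat, where 11 arrays detected it, against 12.05, 12.58 and 13.14 in liver. The fitted difference was -6.35 (SE 0.09), with most fat arrays at background, and a second Slc27a2 probe gave -5.64. Slc27a5 (FATP5), the liver's bile acid-CoA ligase, was undetected on every fat array at 5.87, 5.96 and 6.07, against 10.72, 11.18 and 11.59 in liver. It was at least 31.1-fold lower in fat. Slc27a3, which has acyl-CoA synthetase activity, was higher in fat by 0.54 (SE 0.03), in 48 of 48 mice. Slc27a4 and Slc27a6 were not detected.

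Of 6 genes of the glutamate and neutral amino acid family Slc1, 3 were tested and 2 of these were higher in fat. Slc1a5 (ASCT2), the sodium-dependent glutamine exchanger, had 9.38, 10.78 and 11.53 in fat, against 5.91, 5.99 and 6.17 in liver. Slc1a3 (EAAT1 or GLAST), the glutamate and aspartate carrier best known from astrocytes, had 8.78, 10.12 and 11.42 in fat, against 5.76, 5.82 and 5.89 in liver. Both were free of overlap, at least 20.8-fold higher in fat for Slc1a5 (adjusted p = 1.15e-80) and at least 13.9-fold for Slc1a3 (adjusted p = 1.07e-69). Slc1a4 (ASCT1), the serine and alanine exchanger, did not pass, with a median of 6.62 in fat and 6.64 in liver (difference -0.07, SE 0.06). Slc1a1 was detected on 2 fat arrays, and Slc1a6 and Slc1a7 on none.

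The 2 heavy chains of the Slc7 exchangers went opposite ways. Slc3a2 (4F2hc or CD98), the heavy chain of Slc7a5, Slc7a8 and Slc7a10, had 7.46, 8.24 and 8.91 in fat, against 6.95, 7.42 and 8.33 in liver. The ranges overlapped, and fat was higher by 0.82 (SE 0.07) and in 44 of 48 mice (adjusted p = 3.38e-19). A dimmer second probe of Slc3a2 showed no difference (0.01, adjusted p = 0.809). Slc3a1 (rBAT), the heavy chain of the cystine and cationic amino acid exchanger of kidney and gut, was undetected on all 48 fat arrays at 5.87, 5.95 and 6.06, against 7.62, 8.84 and 9.53 in liver, at least 5.88-fold lower in fat. Its light chain Slc7a9 was detected on no liver array.

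Of 16 Slc7a genes, 6 were tested, of which 3 were higher in fat and 1 in liver. Slc7a10 (Asc-1), known as a surface protein of adipocytes, had 8.14, 9.58 and 10.44 in fat, against 5.80, 5.88 and 6.03 in liver. It was at least 9.20-fold higher in fat (adjusted p = 3.02e-67). The large neutral amino acid exchangers were nearer background. Slc7a8 (LAT2) had 6.17, 6.58 and 7.24 in fat against 5.94, 6.06 and 6.24 in liver, at least 1.25-fold higher, although a dimmer probe of the gene differed by -0.13. Slc7a5 (LAT1) was detected on 24 fat arrays and no liver array. Its fitted difference of 0.27 (SE 0.03), for which no lower bound on the fold could be given, was 0.04 (adjusted p = 0.283) in the authors' deposited values. Slc7a2 (CAT2), a cationic amino acid carrier, was the 1 member higher in liver, at least 1.04-fold. Slc7a4 (0.09, SE 0.09) and Slc7a6os (0.01, SE 0.04) did not pass. Slc7a11, the cystine carrier xCT, was not detected, nor were Slc7a3, Slc7a12, Slc7a13, Slc7a14 and Slc7a15.

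Of 10 genes of the Slc38 family, 5 were tested, of which 2 were higher in fat and 2 in liver. Slc38a4 (SNAT4) had 5.80, 5.89 and 6.72 in fat, with 1 array detected, against 9.55, 10.77 and 11.88 in liver, a difference of -4.87 (SE 0.09). Slc38a3 (SNAT3), which moves glutamine in either direction across the hepatocyte membrane, had 5.82, 5.90 and 6.04 in fat, against 8.93, 10.07 and 11.05 in liver, at least 13.9-fold lower in fat. Slc38a2 (SNAT2), the system A carrier induced by amino acid shortage, was detected on all arrays of both tissues and did not pass, at medians of 7.65 in fat and 7.73 in liver (difference -0.04, SE 0.07). Slc38a5 (SNAT5), a glutamine carrier related to Slc38a3, was detected on 20 fat and no liver arrays, at least 1.04-fold higher in fat, but did not pass in the authors' deposited values (0.06, adjusted p = 0.297). Slc38a10 was higher in fat by 0.07 with quantile normalization over all arrays, but lower by 0.17 in the authors' deposited values, so its direction depends on the scaling. Slc38a8 and Slc38a9 were not detected.

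Slc43a3, a facilitator of purine nucleobase transport, had 7.46, 8.72 and 9.34 in fat, against 6.41, 6.71 and 7.31 in liver. It was 3.82-fold higher in fat without overlap (adjusted p = 2.88e-49), and Slc43a2 was not detected.

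Of 20 Slc6a genes, 6 were tested, and these differed in 5 cases, 4 of them higher in liver. Slc6a12 (BGT1), the betaine and GABA carrier, was undetected on all fat arrays at 5.86, 5.99 and 6.09, against 8.87, 9.46 and 10.09 in liver, at least 9.62-fold lower in fat. Slc6a13 (GAT2), which carries GABA and taurine into hepatocytes, was measured in both tissues, at 6.21, 7.61 and 8.97 in fat against 9.80, 10.37 and 10.79 in liver. No fat array reached the lowest liver array, and the difference was -2.75 (SE 0.09). Slc6a9 (GlyT1), the glycine carrier, was 2.66-fold lower in fat, and Slc6a11, a GABA carrier near background, was lower by 0.09 but higher by 0.07 with median scaling. Slc6a8, the creatine carrier, was the exception at 7.29, 8.12 and 10.78 in fat, against 6.45, 6.75 and 7.21 in liver. It was 2.82-fold higher in fat. Slc6a6, the taurine carrier, did not pass, with medians of 9.42 in fat and 9.39 in liver and 23 of 48 mice higher in fat. The 12 undetected genes were Slc6a2, Slc6a3, Slc6a5, Slc6a7, Slc6a14, Slc6a15, Slc6a16, Slc6a18, Slc6a19, Slc6a20a, Slc6a20b and Slc6a21.

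All 5 tested Slco genes and 4 of 5 tested Slc22a genes were higher in liver. Slco3a1 is not among the 5, because its brightest probe was detected on only 1 fat array. Another probe of Slco3a1 met the minimum and was higher in fat by 0.24. Slco1a1, Slco1a4 and Slco1b2 encode the organic anion carriers Oatp1a1, Oatp1a4 and Oatp1b2 of the hepatocyte's sinusoidal side, and none was detected on any fat array. Slco1a1 had 5.88, 5.95 and 6.03 in fat, against 7.19, 9.24 and 10.09 in liver, at least 7.13-fold lower in fat. The bounds were 3.44-fold for Slco1b2 and 2.43-fold for Slco1a4, whose liver values spread from 6.04 to 9.23. Slco2b1, a carrier of steroid sulfates, was at a median of 9.53 in fat and 10.63 in liver, 2.07-fold lower in fat. The prostaglandin carrier Slco2a1 was 2.41-fold lower in fat, and its 2 other tested probes gave -1.52 and -0.28. Slc22a30, an organic anion carrier of the Oat group, had 5.91, 6.01 and 6.13 in fat, against 7.07, 8.25 and 10.02 in liver, at least 4.63-fold lower in fat. Slc22a23, which has no settled substrate, was detected everywhere, at a median of 8.01 in fat and 9.74 in liver (difference -1.65, SE 0.08). Slc22a7 (OAT2) was lower in fat by 0.58 and the imprinted gene Slc22a18 at least 1.30-fold, while Slc22a5 (OCTN2), the carnitine carrier, did not pass (0.01, SE 0.04). Probes of Slc22a30 and of the Slco1a genes may bind transcripts of close paralogs.

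The undetected members of these families were Slco1a5, Slco1a6, Slco1c1, Slco4c1, Slco5a1, Slco6c1, Slco6d1, Slc22a2, Slc22a6, Slc22a8, Slc22a12, Slc22a13, Slc22a14, Slc22a17, Slc22a19, Slc22a21, Slc22a22 and Slc22a29. Of 11 Slc16a genes, 3 were tested and all lay near background. Slc16a9, known in human as a carnitine carrier, was higher in fat by 0.35 (SE 0.04). Slc16a6, a ketone body exporter in zebrafish liver, was lower in fat by 0.10 (adjusted p = 0.0271) but higher by 0.08 with median scaling and by 0.02 without scanning day 1. The aromatic amino acid carrier Slc16a10 was lower in fat by 0.06 (adjusted p = 0.0117). The lactate carriers Slc16a1, Slc16a7 and Slc16a8, and Slc16a4, Slc16a11, Slc16a12 and Slc16a14, were not detected by their probes.

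All 10 tested genes of bile acid and organic ion transport outside the families were lower in fat, among them Slc10a1, the sodium-dependent bile acid carrier (-6.15), and the canalicular exporters Abcb4 (-4.22), Abcb11 (-3.33) and Abcg5 (-3.67). Of 11 tested nuclear receptors and liver transcription factors, 9 were lower in fat, with Hnf4a at -5.16 and Nr1h4, the bile acid receptor, at -4.35. All 9 tested enzymes of hepatic amino acid breakdown were lower in fat, led by Cps1, which starts the urea cycle, at -7.22. The amino acid response list was mixed, with 5 of 10 tested genes higher in fat, such as Psat1 of serine synthesis (2.35) and Asns (1.83), and 4 lower, such as Cth (-2.03). Among the genes of ketone metabolism, the RNA signal of Oxct1 was higher in fat (4.54) and that of Bdh1 lower (-3.97). Of the accessory partners, Emb, a partner of Slc16 carriers, was higher in fat by 1.01, and Bsg lower by 0.45. Carnitine and acyl-CoA genes were split at 3 each way of 8 tested. For comparison with these lists, 47.9% of all probes were higher in fat and 38.8% in liver.

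The direction of small differences depended on scaling. With median scaling in place of quantiles, the median of all probes lay at 0.26 and 20 members were higher in fat against 17 higher in liver. The 21 differences over 2-fold kept their direction and their calls with median scaling. The smallest of them was -1.05, for Slco2b1, and their sizes under that scaling are not given here. Summed signals of 10 hepatocyte markers were 1160 to 22100 in fat, against 97900 to 142000 in liver, and Slc27a2 in fat reached 9.02. The part of hepatocyte RNA in that value was not tested. Undetected on all fat arrays were 3 of these 10 markers, among them Alb, which has a weak probe.

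In liver the largest sex differences were in the organic anion carriers, and they ran in opposite directions within 1 family. Slco1a4 was 3.14-fold higher in females and Slco1a1 3.15-fold lower, each without overlap between the 24 female and 24 male arrays. In all, 13 of 31 tested genes differed between the sexes (41.9%, where 34.0% of all 8504 tested probes did). Of these, 6 were higher in females (16.7% of all probes were) and 7 higher in males (17.4%), so the members' share was near that of all probes. At an unadjusted p under 0.05, 15 members and 43.4% of all probes differed. Groups did not overlap for 2 of 31 members, 6.45%, against 0.929% of all probes, and 3 were called and over 2-fold, 9.68%, against 1.59% of all probes. The median difference was 0.00 for members and for all probes.

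**Figure D2:**
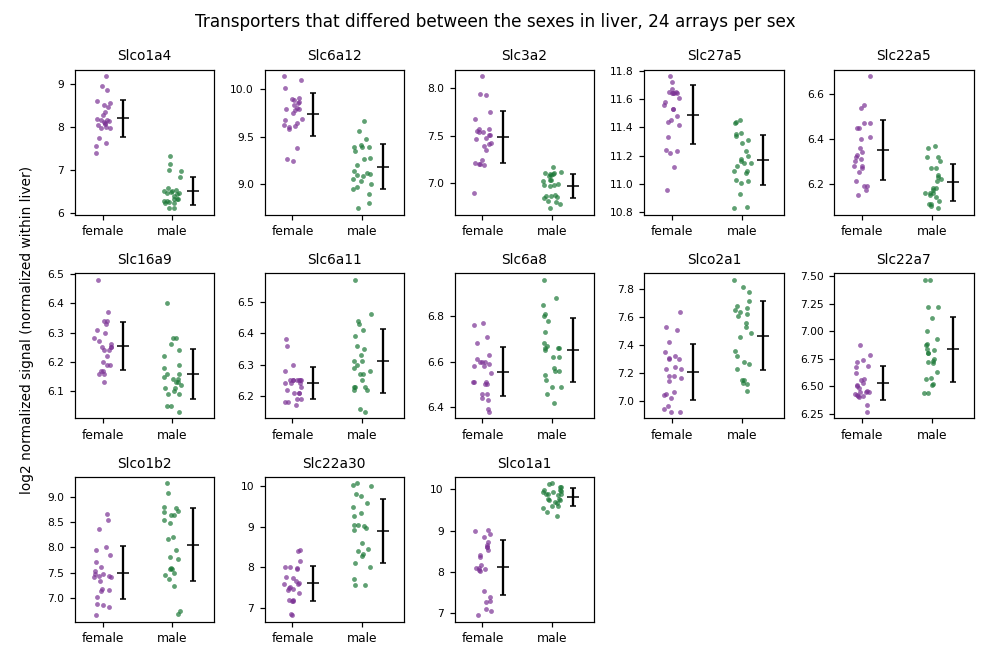
The 13 genes that differed between the sexes in liver, each array a point, with females left of males, and a bar for the mean and SD of 24 arrays on the log2 normalized signal axis. Slco1a4 (top left, higher in females) and Slco1a1 (last panel, lower in females) are the 2 genes whose groups do not overlap.

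Slco1a4 had 7.38, 8.14 and 9.17 in females, against 6.11, 6.44 and 7.33 in males, of which 15 of 24 were detected. Every female lay above every male, by 1.65 (SE 0.10, adjusted p = 1.31e-17), on 4 of 4 scanning days. Day counts, here and below, compare plain means within a day. On any day the females and males were of different classes, so these counts are not adjusted for class. Slco1a1 had 6.94, 8.12 and 9.01 in females, against 9.36, 9.87 and 10.15 in males. The highest female lay below the lowest male, with a difference of -1.66 (SE 0.15, adjusted p = 7.66e-13), and females spread more widely (SD 0.66) than males (SD 0.21). Slco1b2 had 6.65, 7.43 and 8.66 in females, against 6.68, 8.05 and 9.28 in males. These ranges overlapped almost entirely, and the difference of -0.45 (SE 0.14, adjusted p = 0.00885) held its sign on 3 of 4 days. Without scanning day 2 it was -0.22 (adjusted p = 0.258), and with median scaling -0.27 (adjusted p = 0.156).

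These 3 genes lie near each other on chromosome 6. Their promoters are shown because neighbouring genes differed between the sexes in opposite directions. The windows run from 250 bases before to 50 bases after the start, from RefSeq on GRCm38.p6. The minus-strand windows are chr6:141946913-141947212 for Slco1a1 and chr6:141856171-141856470 for Slco1a4, and the plus-strand window is chr6:141629268-141629567 for Slco1b2. Slc3a1 (chr17:85028097-85028396, plus strand) is shown beside them as a gene found in liver only. Capitals mark matches, on either strand, to the STAT5 motif TTCNNNGAA, the HNF1 element GTTAAT and the HNF4 core CAAAGTCCA.
Slco1a1: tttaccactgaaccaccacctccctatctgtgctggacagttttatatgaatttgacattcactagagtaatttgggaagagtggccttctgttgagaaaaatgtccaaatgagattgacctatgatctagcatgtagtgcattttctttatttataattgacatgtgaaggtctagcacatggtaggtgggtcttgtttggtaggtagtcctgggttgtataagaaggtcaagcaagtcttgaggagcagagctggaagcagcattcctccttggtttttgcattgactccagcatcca
Slco1b2: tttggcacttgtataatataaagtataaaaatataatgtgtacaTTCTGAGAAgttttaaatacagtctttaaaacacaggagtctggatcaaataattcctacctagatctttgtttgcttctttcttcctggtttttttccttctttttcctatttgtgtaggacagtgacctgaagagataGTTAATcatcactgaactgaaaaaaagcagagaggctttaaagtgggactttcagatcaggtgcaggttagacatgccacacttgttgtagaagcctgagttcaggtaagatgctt
Slco1a4: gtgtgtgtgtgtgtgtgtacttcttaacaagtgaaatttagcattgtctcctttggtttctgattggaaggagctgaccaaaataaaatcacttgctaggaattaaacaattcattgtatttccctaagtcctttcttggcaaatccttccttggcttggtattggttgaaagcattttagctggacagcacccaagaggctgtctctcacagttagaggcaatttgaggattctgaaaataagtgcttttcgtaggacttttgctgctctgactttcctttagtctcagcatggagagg
Slc3a1: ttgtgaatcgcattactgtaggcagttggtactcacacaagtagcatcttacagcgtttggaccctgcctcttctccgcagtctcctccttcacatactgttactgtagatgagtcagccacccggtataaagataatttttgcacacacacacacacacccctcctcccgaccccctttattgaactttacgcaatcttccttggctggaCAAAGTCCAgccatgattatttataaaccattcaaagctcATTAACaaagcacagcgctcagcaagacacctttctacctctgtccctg

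The Slco1b2 window held a STAT5 match that begins 206 bases before the start and an HNF1 element 66 bases before it. The Slc3a1 window held an HNF4 core 39 bases before the start and an HNF1 element just after the start. Neither Slco1a1 nor Slco1a4 held any of the 3 in its window. Of all 32851 promoter windows, 8.3% held the STAT5 motif, 7.1% the HNF1 element and 0.475% the HNF4 core, and no 2 of the marked matches overlap. A match in these letters is a description and not a measured site.

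Among the other organic ion carriers, Slc22a30 was next in size. It had 6.83, 7.60 and 8.43 in females, against 7.57, 9.00 and 10.06 in males, 2.24-fold lower in females on 4 of 4 days (adjusted p = 9.55e-07), and its 2 dimmer tested probes had the same direction. Slc22a7, a carrier of organic anions such as cyclic nucleotides, had 6.27, 6.49 and 6.88 in females, against 6.44, 6.80 and 7.47 in males. The difference of -0.30 (SE 0.07) was -0.13 (adjusted p = 0.214) with the number of detected probes as a covariate. Slco2a1 was lower in females by 0.21 (adjusted p = 0.0087), which its other tested probes did not show. The carnitine carrier Slc22a5 was higher in females by 0.16 (SE 0.03, adjusted p = 0.000236). It was detected on 17 female and 6 male arrays.

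Among amino acid and osmolyte carriers, Slc6a12 had 9.24, 9.78 and 10.14 in females, against 8.74, 9.12 and 9.67 in males. Most of the female arrays lay above most of the male arrays, and the betaine carrier was 1.53-fold higher in females (adjusted p = 2.62e-10). The heavy chain Slc3a2 had 6.90, 7.49 and 8.12 in females, against 6.74, 6.99 and 7.17 in males. The male values were the tighter group, and the difference was 0.47 (SE 0.06, adjusted p = 2.27e-09), on 4 of 4 days. Its light chains Slc7a5, Slc7a8 and Slc7a10 were undetected in liver and not tested there. Slc38a2 (0.22, adjusted p = 0.0844), Slc38a3 (0.00) and Slc38a4 (0.07) did not pass. Of the fatty acid carriers, the bile acid ligase Slc27a5 was 1.21-fold higher in females (10.96, 11.55 and 11.76 in females, against 10.83, 11.16 and 11.45 in males). Slc27a2 did not pass, at 0.05. Slc16a9 was higher in females by 0.09, and Slc6a8 (-0.11) and Slc6a11 (-0.06) were lower.

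Female livers had more detected probes, with a median of 7832 per array against 6960.5 in males. With that number as a covariate, 7 members were higher in females and 3 in males, while of all 8504 probes 979 were higher in females and 937 in males. With median scaling the members were 13 and 3, and all probes 2818 higher in females and 443 in males. Without scanning day 6, the 7 male-high genes became 4. Slco1a4, Slco1a1, Slc22a30, Slc6a12, Slc3a2, Slc27a5 and Slc22a5 passed with the same sign in all of these.

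Of 10 tested bile acid and organic ion transporters outside the families, 7 were higher in females and none in males, led by Slc47a1 (0.59), Abcg5 (0.63), Abcc3 (0.45) and Abcb4 (0.33). For comparison with the lists, 16.7% of all probes were higher in females and 17.4% in males. The list counts were not repeated with median scaling or the covariate. All 5 tested carnitine and acyl-CoA genes were higher in females, Slc22a5 among them. Of 11 receptors and transcription factors, 4 were higher in females, with the xenobiotic receptors Nr1i3 (1.20) and Nr1i2 (0.38), and 3 lower, with the repressor Bcl6 at -1.29. Genes of amino acid breakdown were higher in females in 5 of 9 cases, with Got1 at 0.87, and ketone and pyruvate genes in 4 of 6, with Bdh1 at 0.46. In the amino acid response list 1 of 6 was higher in females, Cth (0.34), and 3 lower, with Gpt2 at -0.56. Cell markers also moved with sex in liver. Higher in females were 4 of 8 tested hepatocyte genes (Ahsg by 0.44), 2 of 5 macrophage genes (Clec4f by 0.64, Adgre1 by 0.38) and 2 of 4 endothelial genes, and none of these lists had a gene lower in females. Lower in females were 1 of 3 erythroid genes, Alas2 (-2.45), and the 1 tested pancreas gene, Cela1 (-0.43). The part of these cells in the differences was not tested.

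In fat, most of the members that differed between the sexes were higher in males. Among them were the GABA and taurine carrier Slc6a13, the creatine carrier Slc6a8, the glutamate carrier Slc1a3, and Slc38a5, detected in males only. Of 28 tested genes 17 differed (60.7%, where 22.6% of all 10217 tested probes did). Lower in females were 14 of 28, or 50.0%, against 10.5% of all probes, and higher in females were 3, or 10.7%, against 12.1%. The median difference was -0.27 for members and 0.01 for all probes. No fitted difference of the 28 was over 2-fold, which 0.597% of all probes were, although Slc38a5 has only a lower bound. None had groups without overlap, which 0.0392% of all probes had.

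**Figure D3:**
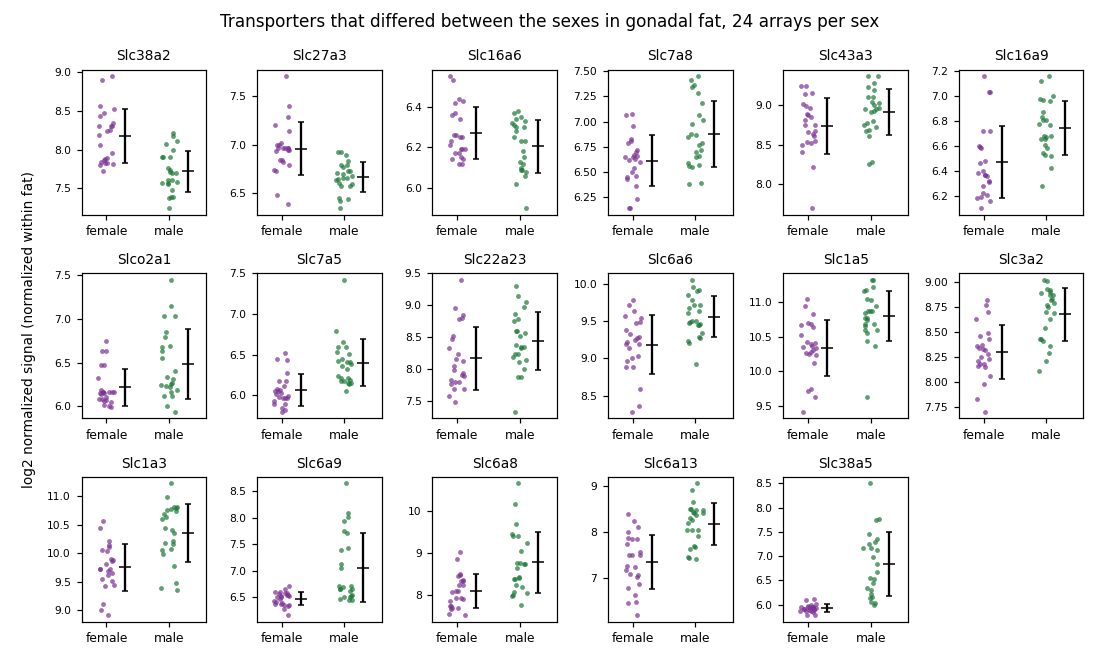
The 17 genes that differed between the sexes in gonadal fat, each array a point, with females left of males, and a bar for the mean and SD of 24 arrays on the log2 normalized signal axis. The first 3 panels are higher in females, the other 14 are lower, and the male values of Slc38a5, Slc6a8 and Slc6a9 have long upper tails.

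Slc38a5 was undetected on all 24 female arrays at 5.78, 5.92 and 6.12, against 5.99, 6.75 and 8.50 in males, of which 20 were detected. The lowest males lay within the female range, and females were at least 1.55-fold lower (adjusted p = 2.54e-06), on 4 of 4 days. Slc38a5 met the detection minimum for testing through male arrays alone. Its p-value and its place in the male-high count are therefore not independent of that selection. Slc7a9 and Slc27a2, also detected mostly or only in male fat, fell short of the minimum and were not tested. Slc6a13 had 6.18, 7.37 and 8.39 in females, against 7.42, 8.29 and 9.07 in males. The upper females overlapped the lower males, and the difference was -0.81 (SE 0.15, adjusted p = 9.64e-05). The creatine carrier Slc6a8 had 7.52, 8.07 and 9.01 in females, against 7.77, 8.69 and 10.65 in males (difference -0.61, SE 0.18). The glycine carrier Slc6a9 had 6.16, 6.51 and 6.71 in females, against 6.44, 6.70 and 8.65 in males. Its groups overlapped at the low end, while some males lay well above every female (difference -0.56, SE 0.14). The taurine carrier Slc6a6, also of this family, was lower in females by 0.37 (adjusted p = 0.00771).

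The glutamate carrier Slc1a3 and the glutamine carrier Slc1a5 were lower in females, and each call was lost when certain single scanning days were left out. Slc1a3 had 8.91, 9.73 and 10.56 in females, against 9.36, 10.42 and 11.23 in males, 1.46-fold lower (adjusted p = 0.00241), but it did not pass without day 4 (-0.47, adjusted p = 0.0553) or day 7 (-0.40, adjusted p = 0.0631). Slc1a5 had 9.41, 10.36 and 11.05 in females, against 9.62, 10.81 and 11.33 in males, 1.31-fold lower (adjusted p = 0.0111), and it did not pass without day 3 (adjusted p = 0.0674), day 4 (adjusted p = 0.123) or day 8 (adjusted p = 0.107). The ranges overlapped widely in both. The heavy chain Slc3a2 had 7.70, 8.30 and 8.82 in females, against 8.11, 8.76 and 9.02 in males, a difference of -0.41 (SE 0.08, adjusted p = 0.000197). Its light chains Slc7a5 (-0.33, adjusted p = 0.000654) and Slc7a8 (-0.27, adjusted p = 0.00756) had the same direction. Slc7a5, detected on 6 female and 18 male arrays, did not pass without day 3 (-0.24, adjusted p = 0.126). Slc7a10, the third light chain in fat, did not pass (0.08, SE 0.13).

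Smaller male-high differences were in Slc22a23 (-0.37), Slco2a1 (-0.31), Slc16a9 (-0.31) and Slc43a3 (-0.27). Slc22a23 did not pass when any 1 of the 4 scanning days was left out, at -0.35 to -0.39. The 3 genes higher in females were Slc38a2, Slc27a3 and Slc16a6 (0.10, adjusted p = 0.0364). Slc16a6 did not pass in the authors' deposited values (adjusted p = 0.0693), with median scaling (adjusted p = 0.39), with day dropped as a term (adjusted p = 0.193) or without day 3, 4 or 8. Slc38a2 had 7.72, 8.22 and 8.95 in females, against 7.24, 7.70 and 8.21 in males. It was 1.38-fold higher in females on 4 of 4 days (adjusted p = 0.000145). Slc27a3 had 6.38, 6.96 and 7.71 in females, against 6.34, 6.66 and 6.92 in males (difference 0.30, adjusted p = 0.00111). The fatty acid carrier Slc27a1 did not pass (0.10, SE 0.16).

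Leaving out scanning day 3 lowered the male-high count to 6 and the female-high count to 1, and leaving out day 7 or day 8 each gave 9 male-high genes. Slc38a5, Slc6a13, Slc3a2, Slc1a3 and Slc38a2 passed without day 3. Of the 15 genes named by size, 10 did not: Slc27a3, Slc16a6, Slc6a8, Slc6a9, Slc1a5, Slc22a23, Slc6a6, Slc7a5, Slc16a9 and Slco2a1. In the other lists in fat, 1 of 7 amino acid response genes was higher in females (Chac1, 0.37), 1 of 4 receptors and factors was lower (Hnf4a, -0.47), and the carnitine genes Cd36 (-0.24) and Cpt2 (-0.23) were lower. Prodh, of proline breakdown, was lower in females by 0.55 and Hal higher by 0.40, and Pdk4 (0.58) and Ldha (0.22) were higher. The 1 bile acid and organic ion transporter tested in fat did not pass. For comparison with these lists, 12.1% of all probes were higher in females and 10.5% in males.

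Marker genes of other cells moved with sex in fat. All 6 fibroblast and stroma genes were higher in females, with summed signals of 9000 to 18300 in females, against 7440 to 11000 in males. Of 5 endothelial genes 2 were higher in females, and of 4 macrophage genes none passed. Of 9 adipocyte genes 1, Plin1, was lower in females (-0.48). Of 10 genes of the hepatocyte list on the array, 2 were tested in fat. Both were lower in females, Cyp2e1 at -0.85 and Serpina1a at -0.30, and whether they mark hepatocytes in fat was not tested. Also lower in females were the 1 tested pancreas gene, Cela1 (-0.43), and 1 of 3 erythroid genes, Hba-a1 (-0.35). Of 4 mesothelial genes Wt1 was higher in females (0.91) and Krt8 lower (-0.97). The part of these cells in the members' differences was not tested.

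A group of male fat arrays held several members together. Slc7a9, the light chain that pairs with Slc3a1, was detected on 8 of 24 male and on no female fat array, at 6.66 to 10.26, in all 4 haplotype classes and on 3 scanning days. With 8 detections it fell under the minimum of 12 and was not tested. Slc27a2 was detected on 11 fat arrays, 10 of them male, and was likewise not tested, and Slc38a5 was detected on 20, all male. All 8 arrays with Slc7a9 detected both. Slc3a1 itself was detected on no fat array.

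**Figure D4:**
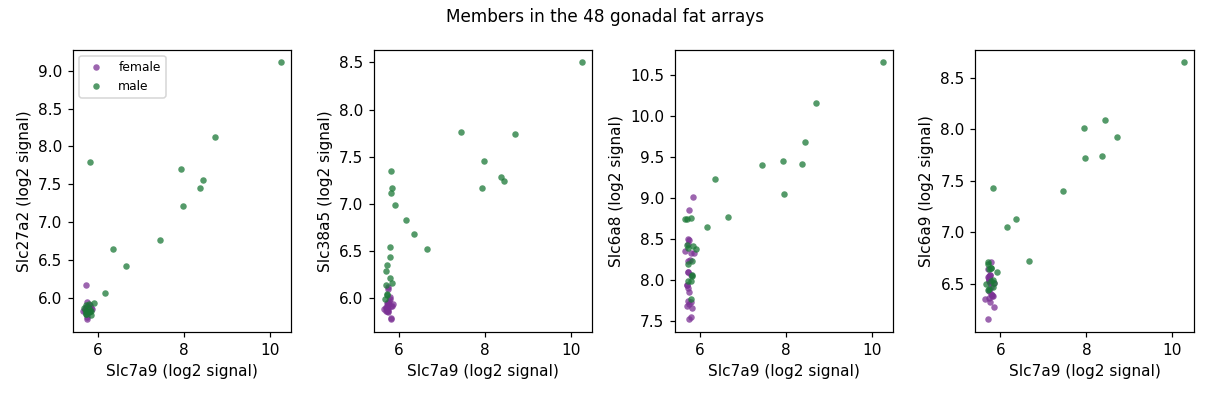
Log2 normalized signals of Slc27a2, Slc38a5, Slc6a8 and Slc6a9 (vertical axes) against Slc7a9 (horizontal axes) on the 48 gonadal fat arrays, each array a point coloured by sex. All female arrays lie at the Slc7a9 background. The array at 10.26 is the highest in all 4 genes, and the one at 6.66 lies among the other males in Slc6a8 and Slc6a9.

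A single male array of class 2 stood apart in other members. Slc7a4, a relative of the cationic amino acid carriers, was 10.58 there, with 7.22 the next highest in fat and a median of 6.16. Slc22a5 was 7.73, with 6.57 the next highest. On that array 3 of 5 epididymis markers were detected with a summed signal of 11700, and 1 other male array detected 2 with a sum of 869. A further 4 fat arrays detected 1 marker each. Without these 6 fat arrays, 16 members differed between the sexes in fat, of which 15 were among the 17, and Slc22a23 (-0.38, adjusted p = 0.0572) and Slc43a3 no longer passed. The share of all probes was then 18.7%, and that of members 57.1%.

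The sex difference itself differed between the tissues for 24 of 40 genes (60.0%, where 27.7% of all 11718 probes did). Some of the 24 were undetected on all arrays of 1 tissue, and for these the interaction restates the sex difference of the other tissue. In the test of sex by tissue, Slco1a1, Slco1a4, Slco1b2 and Slc22a30 had sex differences in liver and were undetected on all fat arrays. Slco2b1, detected on all fat arrays, had an interaction of -0.29 (SE 0.12, adjusted p = 0.049). The interaction was -1.77 (SE 0.11) for Slco1a4 (adjusted p = 2.02e-25), 1.46 (SE 0.14) for Slco1a1 and 1.05 (SE 0.16) for Slc22a30. Slc6a12 (-0.53) and Slc27a5 (-0.25) likewise had female-high values in liver and lay at background in fat. Such an interaction carries no information on sex in fat. Slc1a3, Slc1a5, Slc7a5, Slc7a8 and Slc38a5 were called too but were undetected on all liver arrays. Their interactions carry no information on sex in liver.

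Slc3a2 was measured in both tissues and ran opposite ways. Its means were 8.10 in females and 8.51 in males in fat, and 7.75 in females and 7.22 in males in liver. The interaction was -0.94 (SE 0.10, adjusted p = 3.85e-12). Of 19 genes tested in both tissues, 4 differed between the sexes in both: Slc3a2 and Slc16a9 in opposite directions, and Slc6a8 and Slco2a1 lower in females in both. For Slc16a9, Slc6a8 and Slco2a1 this rests on calls lost under other settings. In fat these 3 did not pass without day 3. In liver Slc16a9 did not pass without day 1 or 5, Slc6a8 with median scaling, the covariate or without day 5 or 6, and Slco2a1 in 6 settings, such as its brightest liver probe (-0.11, adjusted p = 0.341). Slc16a9 had means of 6.42 and 6.63 in female and male fat, against 6.25 and 6.11 in female and male liver (interaction -0.37, SE 0.07). Slc6a13 was lower in female fat, at 7.17 against 7.98 in male fat, and near level in liver at 10.38 in females and 10.28 in males (interaction -0.86, SE 0.15). For Slc38a5 the interaction was -0.72 and for Slc27a3 it was 0.29, and in liver these were detected on 0 and on 5 of 48 arrays.

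**Figure D5:**
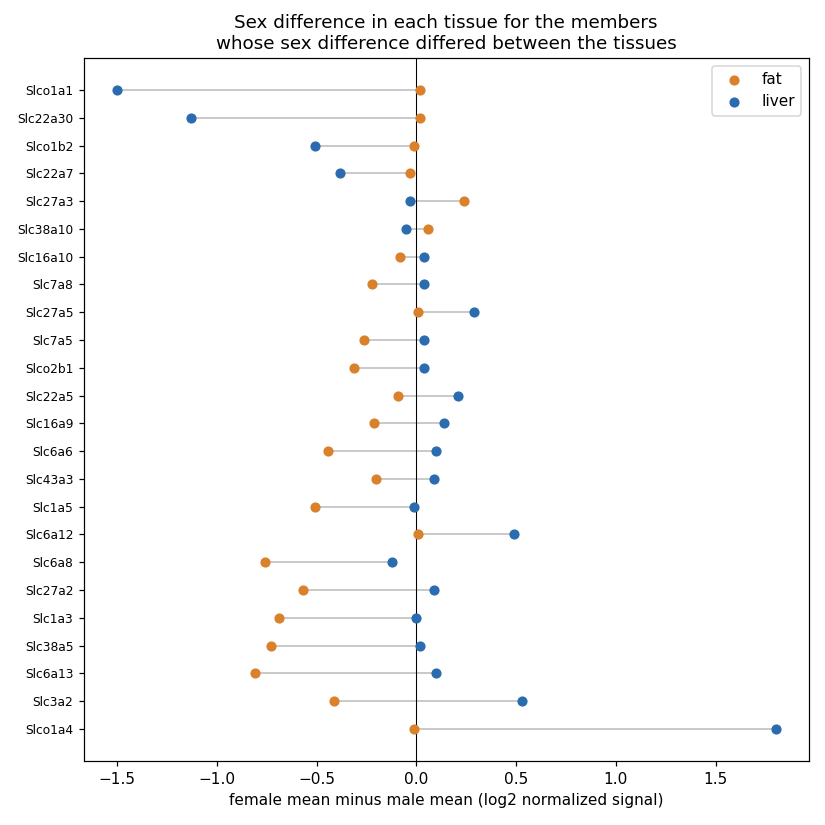
Female mean minus male mean (log2 normalized signal) in fat and in liver for the 24 genes whose sex difference differed between the tissues, with a line joining the values of a gene. Slco1a1 and Slc22a30 (top) and Slco1a4 (bottom) depart from 0 in liver, Slc6a13, Slc38a5 and Slc1a3 in fat, and Slc3a2 lies on opposite sides of 0. Slco1a1, Slc22a30 and Slco1a4 were undetected in fat, and Slc38a5 and Slc1a3 in liver.

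Haplotype class was tested over the 4 classes for the study's question of expression QTLs on chromosome 2. In limma's F-test no member passed (0 of 28 in fat, where 0.401% of all probes did, and 0 of 31 in liver, where 0.317% did). Without adjustment 2 members in fat and 1 in liver had p under 0.05, against 12.9% of all probes in fat and 5.35% in liver. The exchanger Slc7a8 in fat came nearest. It had 6.14, 6.65 and 6.88 in class 1, and 6.14, 6.57 and 7.28 in class 2. It had 6.46, 6.79 and 7.34 in class 3, and 6.54, 6.95 and 7.45 in class 4. The classes overlapped, and class 4 exceeded class 2 by 0.40, on 4 of 4 days (adjusted p = 0.0599). In the authors' deposited values the adjusted p was 0.0428, and with median scaling 0.00437. Slc7a8 lies on chromosome 14. The next smallest in fat were Slc7a10 (adjusted p = 0.374) and Slc6a13 (adjusted p = 0.436).

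In liver the nearest was Slco1a4, whose medians were 6.96, 7.07, 7.33 and 7.53 in classes 1 to 4 (adjusted p = 0.83), followed by Slc38a2 (0.953) and Slco2b1 (0.958), both adjusted p. Of the 5 members on chromosome 2, Slc27a2 and Slc43a3 were tested, and Slc27a4, Slc38a11 and Slco4a1 were detected on too few arrays. Slc27a2 in liver had medians of 12.70, 12.81, 12.75 and 12.81 in classes 1 to 4, with a highest-to-lowest difference of 0.14 (adjusted p = 0.999). Slc43a3 had medians of 8.94, 8.76, 8.92 and 8.90 in fat (adjusted p = 0.902), and of 6.56, 6.59, 6.56 and 6.57 in liver (adjusted p = 0.999). A p that misses the threshold does not show that classes are alike.

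Class effects were not shown to differ between the tissues or the sexes. For tissue by class, 0 of 40 members passed (0.179% of all probes did, and 3 members had p under 0.05 before adjustment, against 8.01% of all probes), with Slc7a8 the smallest (adjusted p = 0.0985). For sex by class, limma called 0 of 28 members in fat and 0 of 31 in liver, and 0 of all probes in either. Before adjustment p was under 0.05 for 1 member in fat, Slc16a10 (adjusted p = 0.72), and for 0 in the livers, among which Slc22a7 came nearest (adjusted p = 0.777). Of all probes, 6.70% in fat and 6.74% in liver had such a p. Scanning day and this interaction were partly tied, since a class held 1 sex on a given day.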

How the data were processed

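Total RNA of each tissue was labelled as biotinylated cRNA and hybridised to Illumina bead arrays, per the labels' protocols. The deposited intensity values per probe are non-normalized, per the file headers. The deposited detection p-value columns hold 1 minus the p-value and were turned back. The deposited matrix holds log2 values that the authors had normalized, per the submitters' processing notes with lumi, by a method not given in the sources used here, and it served as an alternative.

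Signals were processed with limma 3.58.1 in R 4.3.3 by neqc (offset 16, log2), over all 96 arrays for the comparisons of tissues and within a tissue for sex and class. Testing required detection (p under 0.01) on 12 or more arrays of the comparison. Models were fitted with lmFit and eBayes (trend), and Benjamini-Hochberg adjusted p-values under 0.05 over all probes tested were called. Terms were sex and class for fat minus liver, and class, sex and scanning day within a tissue and for the interactions. A gene's probe was the one with the highest mean over all arrays. A lower bound on a fold sets the detected group against the lowest signal of detected probes. Symbols came from GEO's platform annotation. For tissue up to 20 genes in each direction are named and for sex up to 12, by size among those called. For class, every chromosome 2 member and the 3 smallest p are named. For the interactions, up to 10 called genes are named for tissue by sex, or the smallest p. The other lists give up to 4 genes each by the moderated statistic. Other genes named were chosen after their values were seen. The members and lists were chosen with earlier results of these data known. By the mouse numbers in the labels, each animal's 2 tissues are paired, with a consensus correlation of -0.0258 over probes. Whether mice were housed or bred together is not in the labels, so p-values measure the spread between these mice. The number of arrays limits the precision. The fits were tested on simulated data. Alternatives were other normalizations, filters, models, probes, left-out scanning days and left-out arrays.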

Additional observations from a re-analysis of the deposited data

Results flagged for a closer look

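Of the 24 members with a called interaction, the 10 with the smallest p are listed. Their sex difference differed between fat and liver by the test of the interaction itself (sex difference in fat minus that in liver, limma). It was -1.77 for Slco1a4, 1.46 for Slco1a1, 1.05 for Slc22a30, -0.53 for Slc6a12 and -0.25 for Slc27a5, none of them detected on any fat array. It was -0.94 for Slc3a2 and -0.37 for Slc16a9, whose sexes differed in opposite directions in the 2 tissues. It was -0.86 for Slc6a13 and 0.29 for Slc27a3, where fat differed between the sexes, and -0.72 for Slc38a5, which was detected in fat of males only.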

How the results depend on the processing

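Over 22 alternatives, 19 of 188 counts of members moved by more than 1.5 times. They are given here, and the cause was not tested. For fat minus liver, 20 members rather than 13 were higher in fat with median scaling and also with no detection filter, which tests more genes. For sex in liver, median scaling gave 13 higher in females rather than 6 and 3 higher in males rather than 7, and the number of detected probes as a covariate gave 3 higher in males. Leaving out each scanning day gave 4 to 6 male-high members in liver, and in fat 6 to 10 male-high rather than 14 and 1 to 3 female-high. Without day 6 the liver count was 4, and in fat it was 6 and 1 without day 3 and 9 without day 7 or day 8. For class in fat the count was 1 rather than 0 with the deposited values and with median scaling. That member was Slc7a8. For tissue by class it was also 1 rather than 0, Slc7a8 with median scaling, without day 3, without day 7 and without the fat arrays with an epididymis marker, and Slco1a4 without day 1 and without day 6. For sex by class in liver it was 1, Slc38a4, with no scanning day in the model.

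A change of sign was counted only where the main or the alternative value passed. Of 1298 values of named genes under the alternatives, 1229 kept their side of the threshold with no such change. Another 58 no longer passed, 6 newly passed and 5 turned round. The last were fat minus liver for Slc38a10 (-0.17 with the deposited values, -0.03 normalized within each tissue), Slc16a6 (0.08 with median scaling, 0.02 without scanning day 1) and Slc6a11 (0.07 with median scaling). With the mouse as a random or a fixed replicate block, 13 members were higher in fat and 21 in liver, as without it. The random replicate block left 22 members for tissue by sex, and the pairing changed no named call. Leaving out the fat arrays with an epididymis marker, or the 3 arrays of each tissue least correlated with the rest, was chosen after seeing the data. Signals near background limit what can be seen in the 66 members not tested.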
